A study of Mus musculus with 12 samples.

Results

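BV2 cells, an immortalised mouse microglial line, were activated and given small molecules, and 6 of the resulting 12 arrays are compared here. The 3 arrays of cells treated with E5, E19 or E20 are set against the 3 arrays of cells treated with E18, E21 or E23. The compounds are known by these codes only. The sources used here give no identity, dose or vehicle for them. All 6 cultures, like the activated control, were stimulated with LPS (lipopolysaccharide, a component of bacterial outer membranes) at 1 µg/ml and IFN-γ (interferon-γ) at 10 ng/ml and were harvested after 4 h. The activated control received no compound, and the non-activated control received neither stimulus nor compound. Each condition has 1 array. Both controls serve only to place each transcript, and the other 4 compound arrays of the series (E4, E14, E29 and E33) enter neither set.

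Both sets were selected on measured values, namely the likeness of their arrays in these same processed intensities. Counts of probes apart in each pair and correlations between arrays were known when the sets were formed, and the exact criterion is not recorded. The contrast between the sets is therefore a description, with no test and no p-value, and its size was partly fixed by the choice. The arrays of a set are 3 different compounds, so an SD below is the spread between compounds and not between replicate cultures. In RNA from a whole culture, fewer cells with a transcript and less of it per cell cannot be told apart.

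Microglia are the resident macrophages of the brain. LPS acts through TLR4 on the transcription factor NF-κB, and together with IFN-γ it induces cytokines, chemokines and nitric oxide synthase. NRF2 is a transcription factor that responds to oxidants and electrophiles and drives genes for glutathione synthesis, thiol reduction and heme breakdown, several of which the repressor BACH1 also controls.

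Levels are given as the authors' processed intensity on a linear scale, with values under 50 raised to 50. Of 25697 probes, 10282 exceeded 50 on at least 1 of the 6 arrays, and 9691 of these were paired with a gene. A probe was called when the set means of log2 intensity were at least 1.5-fold apart (0.58 on the log2 scale) and the 3 arrays of one set did not overlap with the 3 of the other. Where arrays of the dimmer set lie at 50, the fold is a lower bound and is written as "at least". All 12 arrays had near-identical distributions of processed intensity, and 8538 to 9493 probes were detected on an array. Of the 10 microglial and macrophage markers on the array, 6 were detected on all 12 arrays, among them Trem2, Tyrobp and Aif1. P2ry12 and Tmem119, which mark resting microglia in the brain, were detected on none, Itgam on 1 and Cx3cr1 on 2. Of 27 markers of astrocytes, neurons, oligodendrocytes, lymphocytes, fibroblasts and endothelium, 26 were detected on no array, and the exception, Mog, was detected on 2. None of these markers was called.

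In cells given E5, E19 or E20, 9 of 13 tested NRF2 target genes were higher than in cells given E18, E21 or E23, where 1.21% of all genes were. Of 25 tested NF-κB inflammatory genes, 6 were lower, where 0.927% of all genes were. The gene lists, like the sets, were chosen with earlier results of these data known, so list counts here and below are descriptions and not tests. The call was made for 214 probes (2.08% of those tested), with 122 probes higher (1.19%) and 92 lower (0.895%) in the E5, E19 and E20 set. At least 2-fold differences were seen for 22 higher (0.214%) and 33 lower probes (0.321%). The sets did not overlap, at any size of difference, for 12.1% of probes in the higher direction and 12.2% in the lower. The called probes covered 101 genes that were higher and 72 that were lower, and 9 and 4 called probes were paired with no gene. Leaving out 1 array at a time gave from 106 higher and 86 lower probes (without E19) to 186 and 150 (without E20). Absence of overlap is easier to meet with fewer arrays.

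**Figure D1:**
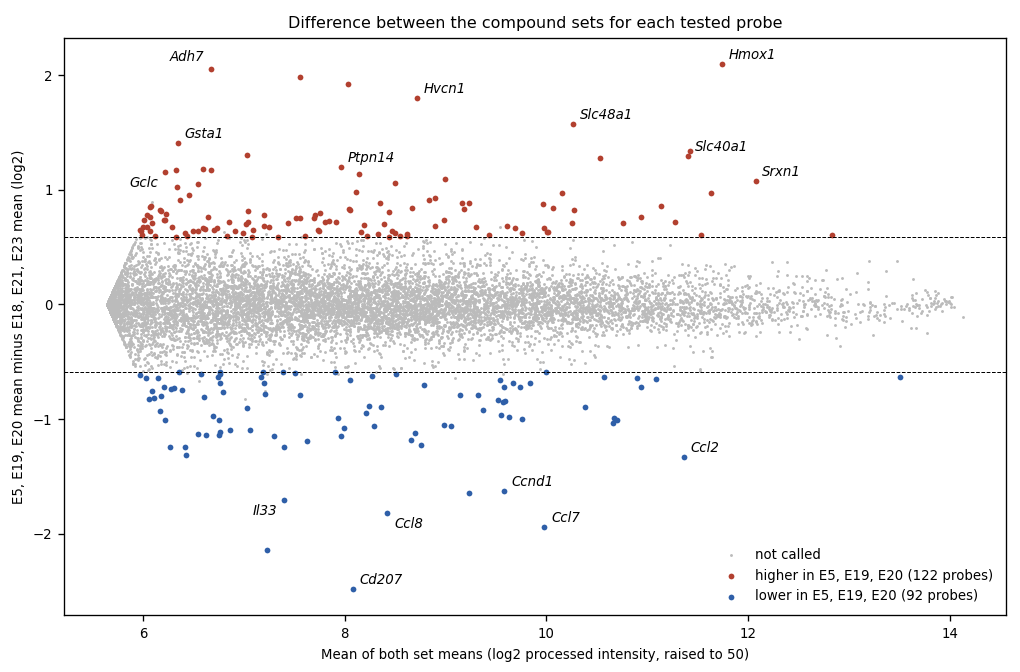
Difference between the set means (E5, E19 and E20 minus E18, E21 and E23, log2) for each of the 10282 tested probes against the mean of both set means (log2 processed intensity raised to 50). Dashed lines mark 1.5-fold, red and blue points the 122 probes called higher and the 92 called lower, and the labels include Hmox1 (2.10), Ccl7 (-1.94) and 2 genes with arrays of the dimmer set at the floor, Adh7 (2.05) and Cd207 (-2.48), whose differences are lower bounds in size.

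Hmox1, which encodes heme oxygenase 1, the enzyme that opens the heme ring, had high levels in all 3 arrays of the first set. Its intensity was 6316 in E5, 9112 in E19 and 6217 in E20, against 1223 in E18, 1736 in E21 and 2146 in E23. Every array of the first set was thus far above every array of the second, and the log2 means were 12.79 ± 0.31 and 10.69 ± 0.41 (SD, n = 3 compounds each), a 4.28-fold difference (log2 difference 2.10). The activated control had 1321 and the non-activated control 4969, so that E5, E19 and E20 were the arrays above both controls.

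Adh7 encodes an alcohol dehydrogenase that oxidises retinol. It gave 219, 233 and 176 in E5, E19 and E20, and lay at or under 50 in E18, E21 and E23 and in both controls, which makes it at least 4.15-fold higher (log2 difference 2.05, and 4.38 with the floor at 10 or 1.05 with it at 100). Its rank against Hmox1, which stays at 2.10 with either floor, therefore depends on the floor. Gsta1, a glutathione S-transferase, had the same form, with 159, 133 and 111 in E5, E19 and E20 and 50 or less in the other set and both controls, at least 2.65-fold higher. The sets did not overlap for either gene, and of the arrays outside both sets E14 alone exceeded 50, with 76.2 for Adh7 and 51.3 for Gsta1. Gsta1 has close paralogs, and a probe may read more than 1 of them.

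The transporters Slc48a1 and Slc40a1 were picked from the largest differences, and no list of heme or iron genes was counted. Slc48a1 is a heme transporter of the endolysosome, and Slc40a1 (ferroportin) exports iron from the cell. Slc48a1 had 2038, 2515 and 1863 in E5, E19 and E20 against 705, 755 and 674 in E18, E21 and E23, a 2.99-fold difference with log2 SDs of 0.22 and 0.08. Slc40a1 had 3995, 4578 and 4160.4 against 1462, 1772 and 1990, a 2.45-fold difference. Neither gene showed overlap, and for both the non-activated control (2737 and 4268) lay near the E5, E19 and E20 arrays while the activated control (751 and 1938) lay within the range of the E18, E21 and E23 arrays. Hamp encodes hepcidin, the peptide that binds ferroportin and brings about its degradation. It was on the opposite side, with 100.2, 102 and 116 in E5, E19 and E20 against 214, 257 and 233 in E18, E21 and E23 (2.21-fold lower, log2 difference -1.15).

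The list of NRF2 target genes held 17 genes, of which 13 were tested. Of these, 9 were higher in E5, E19 and E20 and 0 lower, with a list median of 0.68 on the log2 scale, against -0.012 over all 7119 genes tested, of which 1.21% were called higher. Srxn1, which encodes sulfiredoxin and reactivates oxidised peroxiredoxins, had 6019, 7167 and 5698 in E5, E19 and E20 against 2673, 2898 and 3363 in E18, E21 and E23 (2.11-fold). All 3 of its probes were called, with log2 differences of 1.08 to 1.34. Without the E19 array, 6 of the 9 genes remained called, and Osgin1 (0.49), Taldo1 (0.55) and Sqstm1 (0.57) lay under the threshold, as did Taldo1 (0.57) without E21.

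Glutathione synthesis accounted for a further 3 members. Gclc and Gclm encode the catalytic and modifier subunits of glutamate-cysteine ligase, and Slc7a11 encodes the cystine importer that supplies it. Gclm had 4372, 5229 and 3888 in E5, E19 and E20 against 2246, 2267 and 2297 in E18, E21 and E23. Gclc had 102, 129.5 and 103, against 50 or less in all 3 arrays of the other set (at least 2.22-fold higher). For Slc7a11 the values were 1179, 1917 and 1784 against 757, 875 and 808. In each of these genes the lowest E5, E19 or E20 array stood above the highest E18, E21 or E23 array, and the log2 differences of Gclm and Slc7a11 were 0.98 and 0.97. Glutathione synthetase (Gss), which completes the pathway and was picked after its values were seen, was called with 2 of its 3 tested probes (log2 differences 0.78 and 0.64).

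Smaller differences were found for Osgin1 (0.86, a lower bound), Txnrd1 (thioredoxin reductase, 0.68), Sqstm1 (the autophagy receptor p62, 0.61) and Taldo1 (transaldolase of the pentose phosphate pathway, 0.60). Sqstm1 was even within each set, with 8643, 9427 and 8971 in E5, E19 and E20 against 5846, 5815 and 6079 in E18, E21 and E23. The 4 tested members that were not called were Txn1 (log2 difference 0.14), Nqo1 (0.14), Prdx1 (0.05) and Fth1 (-0.03). Nqo1, one of the best known NRF2 targets, reached at most 58.9 on the 6 arrays. The Prdx1 and Fth1 probes were bright, with 13847 and 17029.5 in E20, and a dimmer probe of Prdx1 was called with a difference of 0.60.

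**Figure D2:**
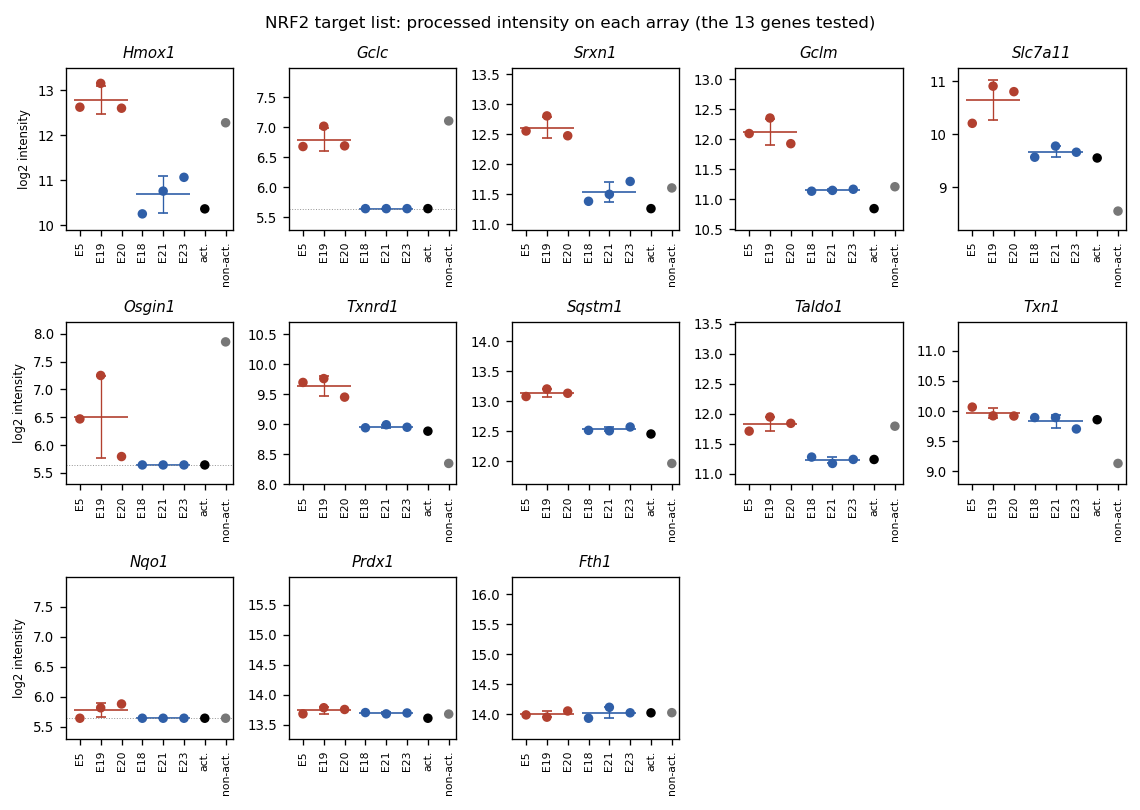
Processed intensity (log2) of the 13 tested NRF2 target genes on the E5, E19 and E20 arrays (red), the E18, E21 and E23 arrays (blue), the activated control (black) and the non-activated control (grey). Horizontal lines and bars give the mean and SD of each set of 3 compounds, the dotted line is the floor of 50, and the sets are apart in the 9 genes from Hmox1 to Taldo1 and meet or nearly meet in Txn1, Nqo1, Prdx1 and Fth1.

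Other called genes with neighbouring functions, picked after their values were seen, were Blvrb, a biliverdin reductase (1.65-fold higher in E5, E19 and E20), Me1, the cytosolic malic enzyme that yields NADPH (1.69-fold), Spic, a transcription factor of iron-recycling macrophages (1.74-fold), and Bach1 itself (1.56-fold). Bach1 had 436, 501 and 397 in E5, E19 and E20 against 305, 294 and 254 in E18, E21 and E23. Of the 3 tested probes of Ikbkg, the regulatory subunit of the IκB kinase, 2 were called higher (log2 differences 0.93 and 0.88).

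The promoter windows of the called genes were searched on both strands for TGAC and GCA separated by any 3 bases, a form of the antioxidant response element that NRF2 binds. Windows ran from 250 bases before to 50 after a start and were available in RefSeq (GRCm38.p6) for 83 of the 101 higher genes and 58 of the 72 lower ones. The letters occurred for 4 of the 83 higher genes (4.82%) and 1 of the 58 lower ones (1.72%), against 3.15% of the 5897 tested genes with a window and 3.45% of all 27025 genes with one. A like search for GGGA and TCC separated by any 3 bases, a form of the site bound by NF-κB, found it for 6 of the 58 lower genes (10.3%) and 6 of the 83 higher ones (7.23%), against 6.38% of tested genes with a window and 5.21% of all genes with one. These shares rest on 1 to 6 genes each, and a match describes letters, not a bound site. The stretches below, 60 bases upstream of a start on the gene's strand with the matched letters in capitals, show 3 higher genes with the first motif and Il6, a lower gene, with the second.
Txnrd1, chr10:82859088-82859147, plus strand: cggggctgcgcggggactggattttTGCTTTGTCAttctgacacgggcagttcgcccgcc
Ikbkg, chrX:74424548-74424607, plus strand: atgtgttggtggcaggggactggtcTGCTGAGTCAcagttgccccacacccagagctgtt
Tbcel, chr9:42461471-42461530, minus strand: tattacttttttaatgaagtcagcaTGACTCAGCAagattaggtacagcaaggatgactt
Il6, chr5:30013045-30013104, plus strand: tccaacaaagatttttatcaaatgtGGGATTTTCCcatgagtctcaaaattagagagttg
The matches of Txnrd1 and Ikbkg lie on the opposite strand, the Il6 match overlaps another on the opposite strand, and Tbcel holds a second match that begins in the last bases of the stretch.

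The remaining higher genes of the 15 with the largest differences have varied roles. Hvcn1 encodes a voltage-gated proton channel of phagocytes. It had 789, 894 and 679 in E5, E19 and E20 against 215, 240 and 220 in E18, E21 and E23 (3.48-fold), and its second probe was also called. Here the activated control, at 369.5, lay between the sets, above all 3 arrays of E18, E21 and E23 and below all 3 of E5, E19 and E20. Tlr13, a receptor that senses bacterial ribosomal RNA in mice, had 437, 486 and 345 against 161, 217 and 196 (2.20-fold) and was the higher gene of this rank most reduced by activation, with 1839 in the non-activated control and 292 in the activated one. Ptpn14, a tyrosine phosphatase, had 358, 392 and 383 against 147, 174 and 174 (2.29-fold), with an SD of 0.07 within E5, E19 and E20. Tbcel, Gca and Mical3 were 2.13-, 2.27- and 2.26-fold higher and Eid3 was 2.47-fold higher. Eid3 and Mical3 were the least even, with E20 (124 and 77.5) well under E19 (275 and 161) for each, and the Eid3 value of E20 was close to the 121 of E21. The probe ILMN_2735350, paired with no gene, was 3.79-fold higher.

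Cd207 encodes langerin, a C-type lectin of Langerhans cells. Its intensity was 167 in E5, at or under 50 in E19 and 179 in E20, against 588 in E18, 715 in E21 and 620 in E23, at least 5.58-fold lower (log2 difference -2.48). The sets did not overlap, but the size rests in part on E19: without that array the difference was -1.88, and over all alternatives it ran from -2.81 to -1.71. The activated control, at 138, lay within the range of E5, E19 and E20, while E4 (370.3) and E14 (325) lay between the sets, and the second probe of Cd207 had the same form (-2.14).

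The chemokine genes Ccl7, Ccl8 and Ccl2, whose products attract monocytes, were lower together. Ccl7 had 529, 431 and 602 in E5, E19 and E20 against 1901, 1991 and 2047 in E18, E21 and E23 (3.84-fold lower, log2 SDs of 0.24 and 0.05). Ccl8 had 237, 112 and 228 against 646, 674 and 617 (3.54-fold lower). Ccl2 had 1869, 1310.2 and 1867 against 3992, 4352 and 4210.2 (2.52-fold lower). For all 3 genes the activated control (1981, 672 and 4321) lay within the range of the E18, E21 and E23 values, and E19 was the lowest of the 6 arrays. These genes are related in sequence and lie in the same family, and the probes may read paralogs. Among other chemokines of the NF-κB list below, Ccl3 (0.06 on the log2 scale), Ccl4 (-0.01, and -0.26 for its other probe) and Ccl5 (-0.17) were not called. The chemokine gene Ccl9, outside that list and picked after its values were seen, was also called lower. It had 715, 459 and 704 in E5, E19 and E20 against 1124, 1227 and 1345 in E18, E21 and E23.

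The list of NF-κB inflammatory genes held 31 genes, of which 25 were tested. Of these, 6 were lower in E5, E19 and E20 and 0 higher, with a list median of -0.17, against 0.927% of all genes tested called lower. The 6 were Ccl7, Ccl2, Lcn2, Nos2, Il6 and Il1b. Nos2, the inducible nitric oxide synthase, had 668, 376 and 714 in E5, E19 and E20 against 1282, 990.2 and 832 in E18, E21 and E23 (log2 difference -0.85). Il6 had 549, 459.6 and 747 against 966, 1160.1 and 971 (-0.84). Il1b had 8794, 8087 and 11609 against 14447, 15029 and 14064 (-0.63). The sets were apart in each of these, by least in Nos2, Il6 and Il1b, where the E20 array came nearest to the other set. Lcn2 (lipocalin 2, which binds bacterial siderophores) was dim, with 85.9, 50.3 and 88.9 against 177, 166 and 140.5 (2.21-fold lower). Without the E19 array, 4 of the 6 remained called, and Nos2 (-0.56) and Il1b (-0.52) lay under the threshold, as did Il1b (-0.58) without E5. Without E20, 9 genes of the list were lower, though absence of overlap is easier to meet with fewer arrays.

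The other 19 tested members of that list were not called. Of all 25 tested members, 21 lay below 0, where 3767 of all 7119 genes did. Tnf had 6973, 5808 and 7017 in E5, E19 and E20 against 6784, 6614 and 6680.0 in E18, E21 and E23, a log2 difference of -0.03, with the sets overlapping. Nfkbia, the inhibitor that NF-κB induces, was at -0.46, Saa3 at -0.58, just under the threshold, and Ptgs2 at 0.49. Of the 30 tested interferon response genes, 0 were called in either direction, where 2.14% of all 7119 genes were, so a count of 0 is near the background. The count covers that list only. Among called genes outside it that rose with activation, picked after their values were seen, Phf11a (-1.06), Ifitm3 (-0.72) and Ubd (-0.72) were lower. Of all called probes at least 2-fold higher with activation, 55 were lower and 11 higher in E5, E19 and E20. The log2 differences of the 30 listed interferon genes ran from -0.58 (Isg20) to 0.28 (Oasl1), with a median of -0.095, and Cxcl10 was at -0.25.

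**Figure D3:**
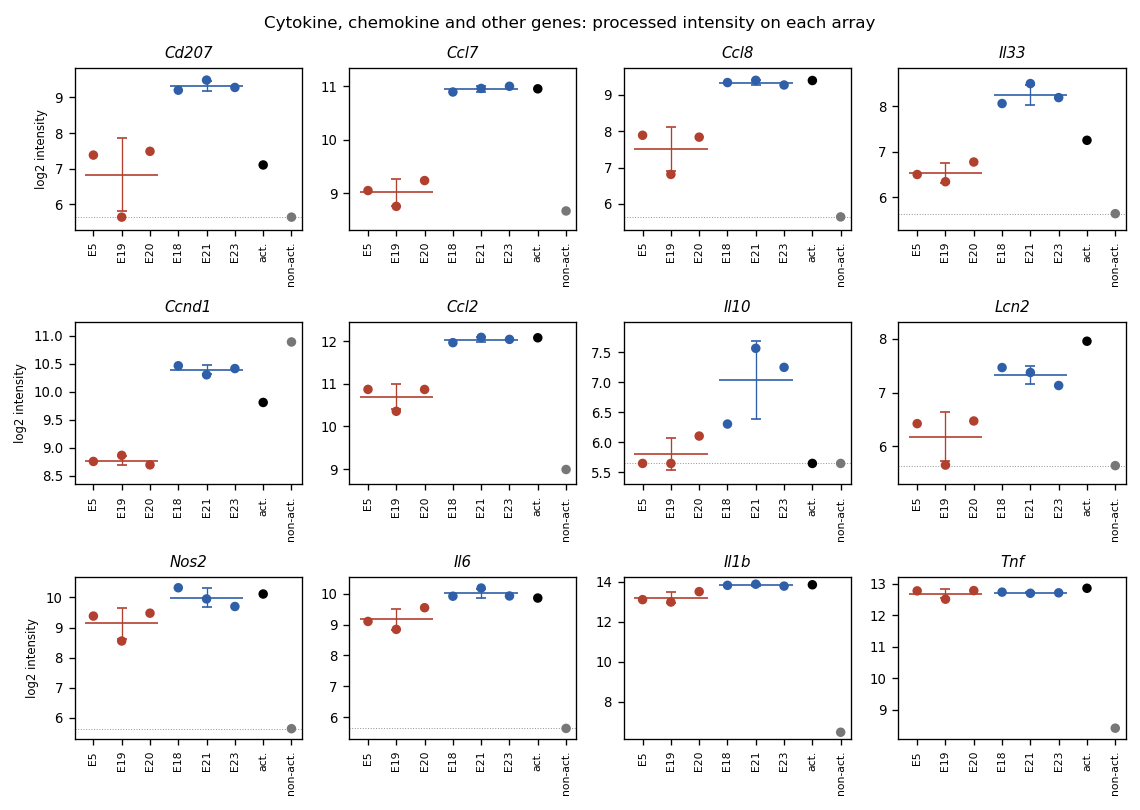
Processed intensity (log2) of 12 genes on the E5, E19 and E20 arrays (red), the E18, E21 and E23 arrays (blue), the activated control (black) and the non-activated control (grey), with mean and SD of each set of 3 compounds and the floor of 50 as a dotted line. The red points lie below the blue ones in all panels except Tnf, where both sets lie near 12.7.

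Il33, an alarmin cytokine, had 90.7, 81.3 and 109.6 in E5, E19 and E20 against 267, 361 and 292 in E18, E21 and E23 (3.26-fold lower), with the activated control between them at 152. Il10, an anti-inflammatory cytokine, was at or under 50 in E5 and E19 and at 68.6 in E20, against 78.8, 189 and 152 in E18, E21 and E23 (at least 2.36-fold lower). Both controls were at or under 50 for Il10, so the signal above background in E18, E21 and E23 had no counterpart in activated cells without a compound.

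Ccnd1, the D-type cyclin that drives entry into the cell cycle, had 432, 466 and 414 in E5, E19 and E20 against 1414, 1264 and 1366 in E18, E21 and E23 (3.08-fold lower), with log2 SDs of 0.09 and 0.08. All 3 of its probes were called. The activated control, at 897, lay between the sets, and the non-activated control, at 1899, above both. Ccnd2, picked after its values were seen, was 1.78-fold lower. Of the 12 tested genes of the cell cycle list, 0 were called, which is near the background of 2.14%. In that list 8 genes lay above 0 and 4 below, from Aurka (-0.54) to Mcm3 (0.58), with a median of 0.15.

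The other lower genes of the 15 with the largest differences were Serpinb2, an inhibitor of plasminogen activators (at least 2.48-fold lower in E5, E19 and E20), Sdcbp2 (2.37-fold), Jdp2, an AP-1 family repressor (2.28-fold), Ikzf1, the lymphoid transcription factor Ikaros (2.22-fold), Mustn1 (2.18-fold) and Arhgef3 (2.17-fold). Ikzf1 was even within E18, E21 and E23, with 371, 373 and 374, against 169, 133 and 211 in E5, E19 and E20. That evenness was not general, since the log2 SD within E18, E21 and E23 was 0.41 for Hmox1 and 0.66 for Il10. Jdp2 had 145, 109 and 142 against 313, 337 and 252. A second tested probe of Sdcbp2 was not called (log2 difference -0.52). Of the 60 called genes with several tested probes, all probes lay on the same side of 0 in 59 and all were called in 19.

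Outside the NRF2, NF-κB and interferon lists, 17 further lists held 127 different tested genes, of which 4 were called (3.15%, against 2.14% of all genes). This share is near the background. The calls were Vegfa among hypoxia and glycolysis genes (0.65), Dusp2 among immediate early genes (-0.98), Errfi1 among glucocorticoid targets (-0.66) and Il10 among cAMP targets. A second tested probe of Vegfa was not called (0.36). Vegfa lay under the threshold without E19 (0.51), and Errfi1 without E5 (-0.45) or E21 (-0.50). No gene was called among the 17 tested genes of the unfolded protein and integrated stress response, where 14 lay above 0 (median 0.22), the 13 of cholesterol synthesis (median 0.14), the 11 of the lysosome or the 8 of the heat shock response. The same held for the LXR, AhR, TGF-β, retinoid and PPAR, p53, metallothionein, histone and ribosomal protein lists.

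**Figure D4:**
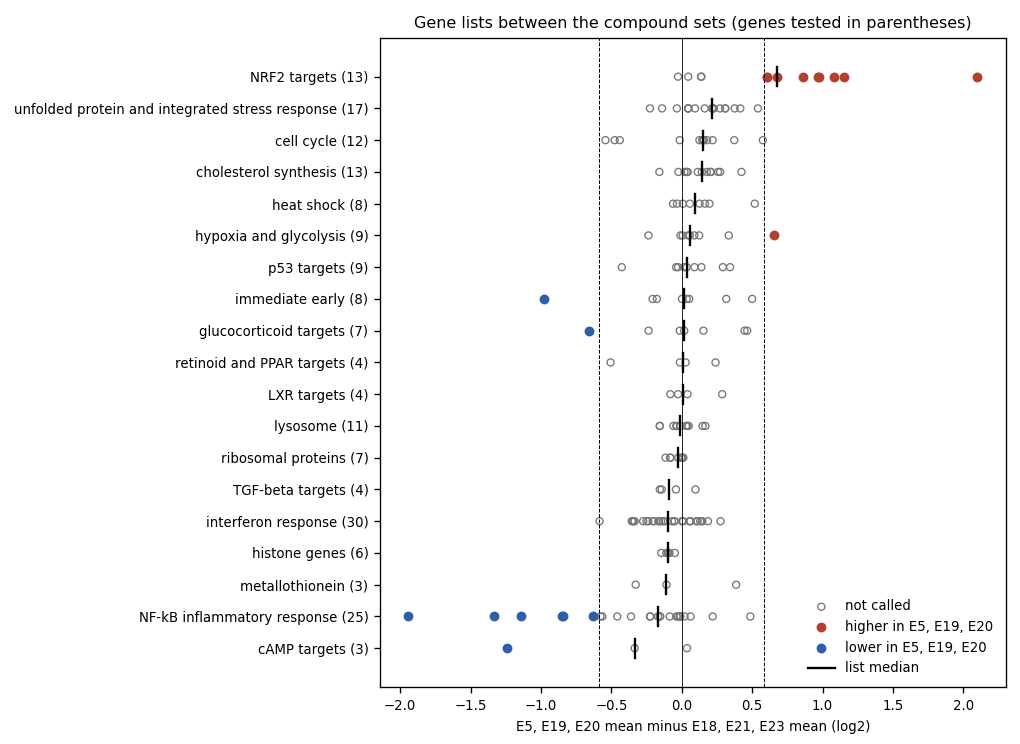
Log2 difference between the set means (E5, E19 and E20 minus E18, E21 and E23) of each tested gene in the lists with at least 3 tested genes, by the brightest probe of a gene. Filled points are called genes, open points are not, black bars are list medians and dashed lines mark 1.5-fold, and the NRF2 list, with a median of 0.68, lies farthest to the right.

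The called probes were also set against the activated control. These placements all use the same control array, so they are not separate results. The probes were called for a difference of at least 1.5-fold between the sets. Their shares below are thus partly fixed by the call, and the shares of all tested probes, which were not so selected, are no like background. Of the 122 higher probes, the E5, E19 and E20 mean was at least 1.5-fold above the activated control for 75 (61.5%), where 2.07% of all tested probes were, and the E18, E21 and E23 mean was at least 1.5-fold below it for 8, where 1.58% of all tested probes were. Of the 92 lower probes, the E5, E19 and E20 mean was at least 1.5-fold below the activated control for 61 (66.3%), where 2.81% of all tested probes were, and the E18, E21 and E23 mean was at least 1.5-fold above it for 17, where 0.827% of all tested probes were, among them both probes of Cd207. The median over the higher probes was 0.68 for the E5, E19 and E20 mean minus the activated control and -0.078 for the E18, E21 and E23 mean minus it. Over the lower probes the medians were -0.89 and -0.0070.

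The response to activation differed between the directions. Of the 92 lower probes, 55 were at least 2-fold higher in the activated than in the non-activated control (59.8%, against 8.99% of all tested probes), and 9 were at least 2-fold lower. In all 55 the E5, E19 and E20 mean was nearer to the non-activated level than the E18, E21 and E23 mean was, which follows from the call wherever a level does not fall under that of non-activated cells. Of the 122 higher probes, 84 changed less than 2-fold with activation, 27 fell at least 2-fold with activation (22.1%, against 6.77% of all tested probes) and 11 were at least 2-fold higher in activated cells. Hmox1, Slc48a1, Slc40a1, Tlr13 and Gclc were lower with activation, while Slc7a11 and Txnrd1 were higher.

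The 3 compounds of each set were not equal. E19 was the array farthest from the other set for 77 of the 122 higher and 61 of the 92 lower probes, and E20 the nearest for 69 and 52. The median distance from the E18, E21 and E23 mean over the higher probes was 1.81-fold in E19, 1.70-fold in E5 and 1.59-fold in E20. Over the lower probes it was 2.14-fold in E19, 1.82-fold in E5 and 1.65-fold in E20. Within the other set, E18 was the farthest array for 60 of the higher probes and E21 for 54 of the lower ones. Over all 10282 tested probes, the pairs within E5, E19 and E20 were at least 2-fold apart in 12 to 22 probes, the pairs within E18, E21 and E23 in 1 to 2 and the 9 pairs between the sets in 36 to 145, the lowest being E20 with E23. These pair counts are of the kind by which the sets were formed. The probes nearest to the threshold were 1.50-fold apart on either side of it, for example Primpol inside (log2 difference 0.59) and Lamc1 outside (0.58).

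The 4 compound arrays outside both sets took different places on the called probes. The place of an array was measured as its distance from the E18, E21 and E23 mean in percent of the distance to the E5, E19 and E20 mean, on the log2 scale. E14 lay about midway, with a median of 49.3% over the 122 higher probes (interquartile range 30.1% to 58.5%) and 44.4% over the 92 lower ones (29.6% to 67.6%). It was strictly between the ranges of both sets for 85 of the higher and 58 of the lower probes, and for 8 of the 9 called NRF2 targets. Hmox1 had 3607 in E14, Srxn1 4591 and Slc48a1 1289, each between the sets, and Ccl7 had 1150.0 and Ccl2 2833. By comparison, the activated control was between both ranges for 49 higher and 23 lower probes, and E4 for 56 and 33. Among the 9 called NRF2 targets, the activated control was between both ranges for 0 and E4 for 3.

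E4 was nearer to the E18, E21 and E23 set, with medians of 23.5% for higher and 11.2% for lower probes. E29 differed by direction. It lay beyond the E5, E19 and E20 mean over the lower probes (131%) and on the far side of the E18, E21 and E23 mean over the higher ones (-28.1%). For 74 of the 92 lower probes E29 was within or below the E5, E19 and E20 range, but Ccl2, at 4403 in E29, was an exception, and Hmox1, at 1127, and Slc40a1, at 416, were below all 3 arrays of E18, E21 and E23. E33 had medians of -14.6% and 10.4%, and Hmox1 was lowest of all 12 arrays in E33, at 672.

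**Figure D5:**
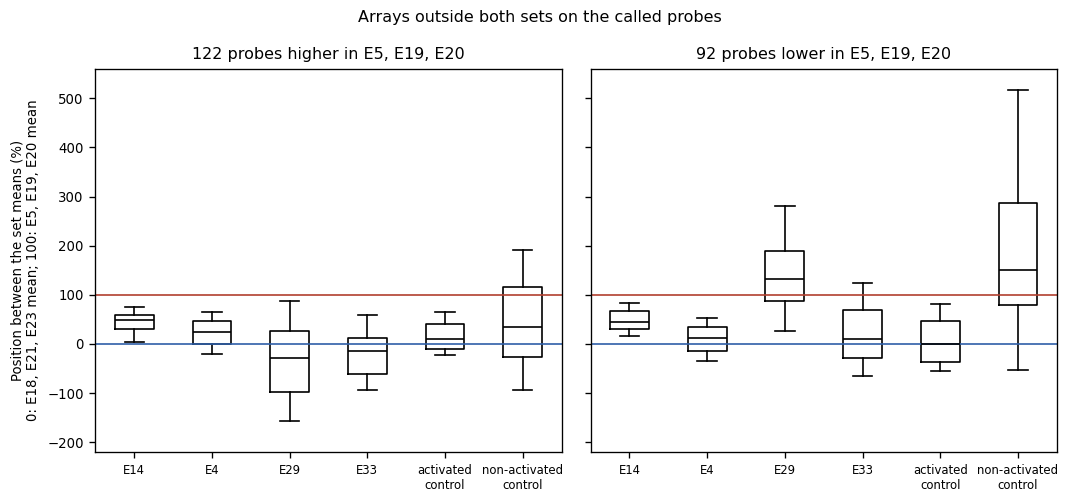
Place of each array outside both sets on the 122 higher (left) and 92 lower probes (right), where 0% is the E18, E21 and E23 mean and 100% the E5, E19 and E20 mean (log2 scale). Boxes give the median and quartiles over probes and whiskers the 10th and 90th percentiles, and E14 has medians of 49.3% and 44.4%.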

How the data were processed

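RNA of 12 BV2 cultures was hybridised to single-colour Illumina bead arrays, 1 per condition. The deposited processed values are linear intensities, at 10 for 45.1% to 45.2% of probes. The sources used here do not say how the authors normalized them or treated background. Per the file headers, a deposited scanner table holds each probe's intensity with its detection p-value (detected under 0.01). GenomeStudio 2010.3 was used, per the submitters' processing notes.

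Processed values were raised to 50 and log2-transformed. Set means were compared by fold (1.5) and absence of overlap. The step was tested on simulated data. Of 25697 probes, 23978 were paired with 1 gene, 0 with several and 1719 with none by GEO's platform annotation. For 23962 probes the symbol was taken from RefSeq (GRCm38.p6) by gene ID, whether or not it differed. Lists used the brightest probe of a gene. Genes were named as the 15 largest differences in each direction (the brightest called probe of a gene) plus called list members. The sets and lists were chosen with earlier results of these data known. limma 3.58.1 (R 4.3.3) served for alternatives, with Python 3.11.15, numpy 2.4.6 and pandas 2.3.3. No p-value was computed, and precision is limited by how few arrays there are.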

Additional observations from a re-analysis of the deposited data

How the results depend on the processing

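No paired analysis was possible because no condition had a second array. The limit to probes above 50 on all 6 arrays was added after the data were seen, as were all settings but the floor of 10 and neqc for the gene lists. With a floor of 10 the calls were 366 probes higher and 315 lower, without background correction of the scanner signals 49 and 52, at 2-fold 22 and 33, and leaving out 1 array at a time 106 to 186 and 86 to 150. The other 8 settings tried gave 82 to 128 higher and 65 to 102 lower probes. Dim signal limits the calls, since all 3 dimmer arrays were at 50 for 8 of the 122 higher and 2 of the 92 lower probes. Some but not all of the dimmer arrays were at 50 for a further 14 higher and 18 lower probes. At 2-fold, 3 NRF2 genes were higher and 3 NF-κB genes lower. In the other settings with all arrays the counts were 7 to 10 and 5 to 8. Leaving out 1 array at a time gave 6 to 9 NRF2 genes higher, 4 to 9 NF-κB genes lower and 0 to 1 higher, and 0 to 1 interferon genes lower. At a floor of 100, Gclc (0.15) and Osgin1 (0.20) lay under the threshold. With the floor of 10, the E5, E19 and E20 mean was at least 1.5-fold from the activated control for 49.2% of higher and 50.2% of lower probes. The percentages of probes nearer to E5, E19 and E20 were then 38.0% and 41.0% for the activated control, 33.9% and 37.1% for E4, 41.3% and 58.7% for E29 and 31.7% and 45.4% for E33, higher and lower probes in turn, against 17.2% and 25%, 19.7% and 15.2%, 22.1% and 81.5%, and 11.5% and 31.5% with the floor of 50. The cause of these moves was not tested. Of 504 alternative values of 42 named differences, 0 changed sign and 45 moved by more than the spread within the sets. Hmox1 ranged from 1.86 to 2.34, Ccl7 from -2.12 to -1.81 and Ccnd1 from -1.77 to -1.54 on the log2 scale, while the dim genes Adh7 (1.05 to 4.38), Gsta1 (0.41 to 3.41) and Gclc (0.15 to 1.39) ranged widely.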
